A study of Homo sapiens with 6 samples.

Results

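Cyclin D, its partner kinases CDK4 and CDK6, their inhibitors and the pocket proteins they phosphorylate were followed as 10 genes among the 60609 listed in the count tables. They were chosen by name, matched 1 gene each, and all 10 were among the 19114 genes with enough counts to be tested. The cells were K562, an established human leukemia line with erythroid features. Their endogenous EP400, the ATPase and scaffold subunit of the TIP60 chromatin complex, carries a homozygous FKBP12-based degradation tag (EP400-dTAG). One line expresses exogenous WT EP400 from the AAVS1 safe harbor locus, and the other (Delta-TRRAP) expresses EP400 lacking the SANT and HD domains that hold the TRRAP module. All 6 libraries, 3 for each line, came from cells given 500 nM dTAGV-1, the degrader of the tagged protein, for 24 h, so no untreated cells entered the comparison. Each line was 1 clone, so genotype and clone cannot be told apart. The 3 libraries of a line measure the spread within that clone only.

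D-type cyclins are made when growth signals are present and bind CDK4 or CDK6. The active kinases phosphorylate RB1 and its relative RBL1, which otherwise hold E2F transcription factors inactive, and cells then enter S phase. The INK4 protein encoded by CDKN2C binds CDK4 and CDK6 directly, whereas the CIP/KIP proteins encoded by CDKN1A (p21) and CDKN1B (p27) bind cyclin-CDK complexes. In hematopoietic cells CDK6, cyclin D2 and cyclin D3 are the members best known for driving division.

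Libraries held 35076835 to 42616061 counts in genes. The mitochondrial share was 3.18% to 3.71% in the WT libraries and 5.07% to 6.24% in the Delta-TRRAP libraries, and its part in the results below was not tested. All 9 erythroid marker genes were tested, with HBZ called higher and TFRC called lower in Delta-TRRAP. The labels give the cell type as lymphoblast. Of 5 lymphoid markers 3 were tested and none was called, and MS4A1 had no count in any library. Normalized counts of the 5 summed to between 484 and 496 in WT and between 417 and 451 in Delta-TRRAP. Most of each sum was CD3D alone, with means of 434 in WT and 387 in Delta-TRRAP. The 6 mesenchymal markers summed to between 35.5 and 57.0 normalized counts in WT and between 910 and 972 in Delta-TRRAP, of which COL1A2 alone gave 876 ± 45.1 (SD, n = 3). PDGFRB was also called higher, from 5 to 28 raw counts over the 3 libraries of each line, and COL3A1, left out by the count filter, went from 2 to 28. COL1A1 had 86 and 89 raw counts, DCN had 35 and 26, and LUM had no count in any library. Of 3 myeloid markers, LYZ was called lower and MPO higher, with sums of 8017 to 8821 and 887 to 947 normalized counts. The part of these markers in the results below was not tested. In bulk RNA, fewer cells of a type and less RNA per cell cannot be told apart.

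Windows of 300 bases around an annotated transcript start were matched by symbol in RefSeq (GRCh38.p14) for 8 of the 10 genes, with 250 bases before the start and 50 after it. CCND1 and CCND2 were not matched. The RefSeq start is not always the start of the GENCODE gene used for the positions given here. The window holds that start for CDK6, CDKN2C and RBL1, while the nearest window lies 1669 bases from it for CCND3, 2254 for CDKN1A, 3703 for CDK4, 31870 for CDKN1B and 172706 for RB1. The 4 windows below belong to CDK6 and CDKN1A, which changed at least 2-fold, and to CDK4 and RBL1, which fell by less, and they show how unlike these promoters are in sequence. Capitals mark matches on either strand to the E-box CACGTG, bound by MYC and its relatives, to the E2F-type spellings TTTCCCGC, TTTCGCGC, TTTGCCGC and TTTGGCGC, and to the GC box GGGCGG, bound by SP1. The AP-1 site TGANTCA, the cAMP response element TGACGTCA and the TATA box TATAAA were searched too and had no match in these 4 windows.
CDKN1A (chr6:36678464-36678763, plus strand): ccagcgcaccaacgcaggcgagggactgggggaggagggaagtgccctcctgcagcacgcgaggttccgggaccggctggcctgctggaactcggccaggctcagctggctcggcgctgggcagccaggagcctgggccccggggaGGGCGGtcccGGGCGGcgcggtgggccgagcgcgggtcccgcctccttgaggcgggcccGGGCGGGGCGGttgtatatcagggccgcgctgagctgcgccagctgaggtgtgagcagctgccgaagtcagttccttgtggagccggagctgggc
CDK6 (chr7:92836524-92836823, minus strand): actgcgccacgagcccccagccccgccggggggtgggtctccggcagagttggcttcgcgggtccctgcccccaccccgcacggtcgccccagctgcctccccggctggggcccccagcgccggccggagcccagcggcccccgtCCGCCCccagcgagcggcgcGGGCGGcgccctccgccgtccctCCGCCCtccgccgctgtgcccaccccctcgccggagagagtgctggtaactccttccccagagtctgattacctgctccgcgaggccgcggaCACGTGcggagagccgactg
CDK4 (chr12:57752261-57752560, minus strand): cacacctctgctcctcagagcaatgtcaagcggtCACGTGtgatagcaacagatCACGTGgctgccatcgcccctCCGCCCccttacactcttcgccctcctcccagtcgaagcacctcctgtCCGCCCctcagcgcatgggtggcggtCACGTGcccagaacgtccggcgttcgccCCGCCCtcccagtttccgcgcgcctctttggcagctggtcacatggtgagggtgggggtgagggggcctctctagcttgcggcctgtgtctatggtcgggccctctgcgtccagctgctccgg
RBL1 (chr20:37095948-37096247, minus strand): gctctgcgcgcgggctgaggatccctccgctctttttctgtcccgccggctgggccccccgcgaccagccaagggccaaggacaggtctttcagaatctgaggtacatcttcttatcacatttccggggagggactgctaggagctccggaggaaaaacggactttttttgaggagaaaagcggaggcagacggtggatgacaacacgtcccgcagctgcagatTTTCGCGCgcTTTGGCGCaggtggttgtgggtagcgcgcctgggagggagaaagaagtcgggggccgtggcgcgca
The CDK4 window held 3 E-boxes and 3 GC boxes, and the CDK6 window held 1 E-box and 3 GC boxes. The CDKN1A window held 4 GC boxes, of which 2 overlap, and no E-box. RBL1 held 2 E2F-type sites close to each other and neither of the other motifs. Among all 35116 RefSeq windows of this length, 7.26% held the E-box, 3.31% an E2F-type site and 45% the GC box, with 7.71% for AP-1, 1.85% for the cAMP response element and 11.5% for TATAAA. A match describes letters in the window and is not evidence of a bound site.

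To ask how the G1 machinery differed between the lines, counts were compared gene by gene. Calling a gene took both a 2-fold difference and a p of at most 0.01 after Benjamini-Hochberg adjustment over all tested genes (edgeR quasi-likelihood test). CCND1 and CDK6 were called lower, at 29.6-fold and 2.175-fold, CDKN1A was called higher, at 2.23-fold, and the other 7 genes were not called. Among all tested genes 22.6% were called, 16.5% higher and 6.08% lower. These shares were not computed for genes of like count level. Of 10 members, 1 higher lies near the background share for the rises and 2 lower lies above it for the falls. Those 2 are CCND1, which the study itself shows as an example, and CDK6, which is not called under library-size scaling. They are too few for a reading of the set. Without the fold requirement 8 members passed, 1 higher and 7 lower, against 58.3% of all tested genes, 30.7% higher and 27.6% lower. The groups did not overlap for 9 members, against 71.1% of all tested genes. The median log2 fold change of Delta-TRRAP over WT was -0.43 for the members and 0.03 for all tested genes. Scaling by library size raised the median of all genes by 0.14 and upper-quartile scaling raised it by 0.10. Members past the adjusted p then numbered 3 higher and 6 lower, and 2 higher and 6 lower, respectively.

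**Figure D1:**
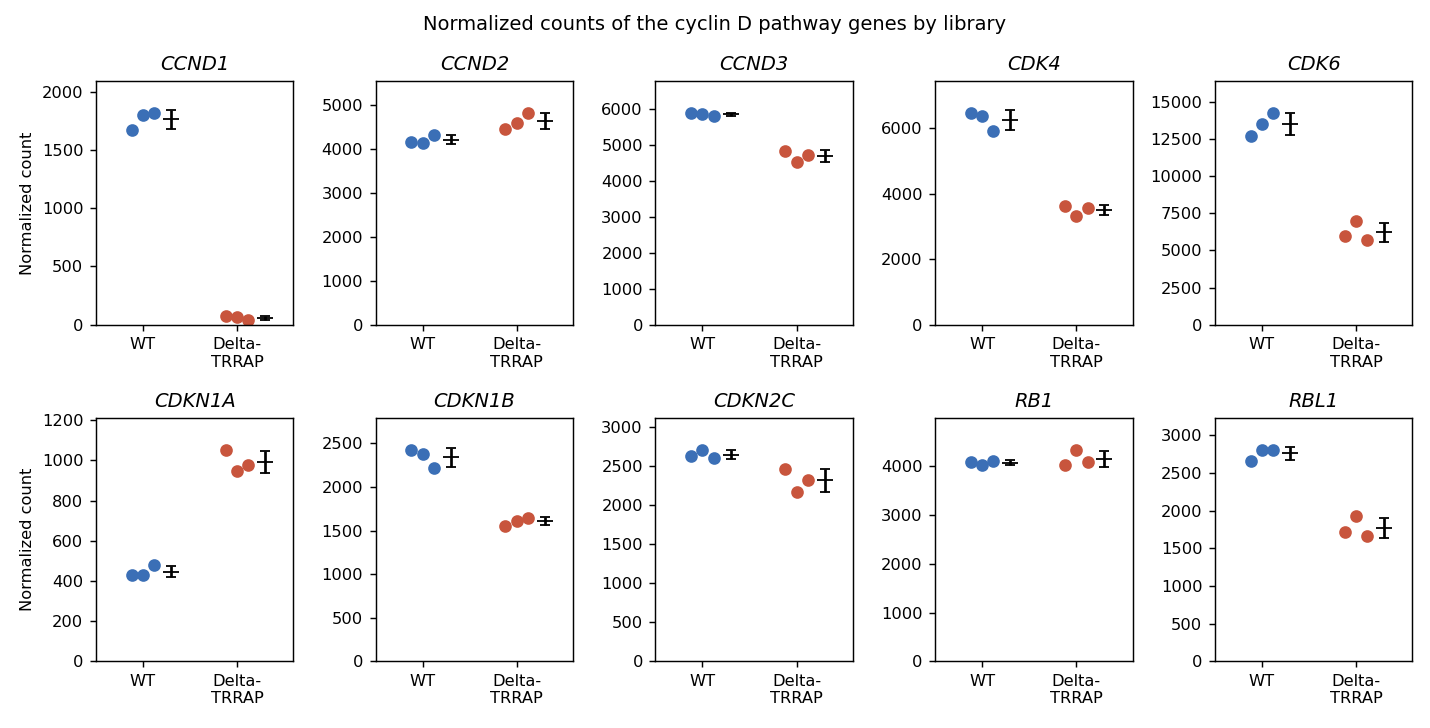
Normalized count (linear axis from 0, own scale in each panel) of each gene in the 3 WT and 3 Delta-TRRAP libraries, with the mean and SD as a bar beside the points. CCND1 lies between 1668 and 1817 in WT and between 38.1 and 75.5 in Delta-TRRAP, and RB1 is the gene whose groups overlap.

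Of the D-type cyclins, CCND1 (ENSG00000110092.3, chr11:69641156-69654474), which encodes cyclin D1, showed the largest difference of the 10 genes. Its normalized count, the count divided by the relative scaled library size, was 1668, 1798 and 1817 in WT and 75.5, 63.4 and 38.1 in Delta-TRRAP. Every Delta-TRRAP library lay far below every WT library, and the Delta-TRRAP libraries differed among themselves by more, relative to their level, than the WT libraries did. On the log2 scale the difference was -4.89 ± 0.12 (SE; adjusted p = 3.88e-14, edgeR). It stayed between -5.11 and -4.66 when each library was left out. CCND1 transcript was still counted in Delta-TRRAP, with 77, 65 and 36 raw counts. The study presents this gene as an example in the same lines, so its fall here is not independent evidence.

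CCND2 (ENSG00000118971.8, chr12:4269771-4305353), encoding cyclin D2, had 4161, 4149 and 4333 normalized counts in WT and 4472, 4611 and 4833 in Delta-TRRAP. The Delta-TRRAP libraries were all above the WT libraries by a small margin. The log2 fold change of 0.14 ± 0.05 (SE) did not pass (adjusted p = 0.0244, edgeR), with a 95% interval of 0.03 to 0.25. It did pass under upper-quartile scaling (0.24), under library-size scaling (0.27) and with a minimum mean count of 50, which also changes the scaling (0.21). Of its 7988 exon bases 999 are shared with a second gene on the same strand, and reads there would be left out for both genes. That second gene had 0 counts in all libraries.

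CCND3 (ENSG00000112576.12, chr6:41934934-42050357), encoding cyclin D3, fell by a smaller amount. Its normalized counts were 5902, 5861 and 5810 in WT and 4845, 4525 and 4736 in Delta-TRRAP. The groups were well apart, and the log2 fold change was -0.32 ± 0.05 (SE; adjusted p = 3.49e-05, edgeR).

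Set per kilobase of exon, so that genes can be compared, the 3 cyclins were unequal in WT and became more so in Delta-TRRAP. Cyclin D3 transcript was the most abundant in both lines, at 1017 ± 8.05 normalized counts per kb in WT and 816 ± 28.2 in Delta-TRRAP (SD, n = 3). Cyclin D2 followed at 528 ± 12.9 and 581 ± 22.8, and cyclin D1 went from 370 ± 17.1 to 12.4 ± 4.01. The summed level was 1896, 1914 and 1933 in WT and 1417, 1376 and 1435 in Delta-TRRAP. All Delta-TRRAP sums lay below all WT sums. The log2 ratio was -0.44 with an exact two-sided permutation p of 0.1, the smallest that 3 against 3 libraries allows. Within the sum, CCND1 went from 19.3% ± 0.727 to 0.881% ± 0.291, CCND2 from 27.6% ± 0.475 to 41.2% ± 1.47 and CCND3 from 53.1% ± 0.931 to 57.9% ± 1.27 (SD, n = 3 each).

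**Figure D2:**
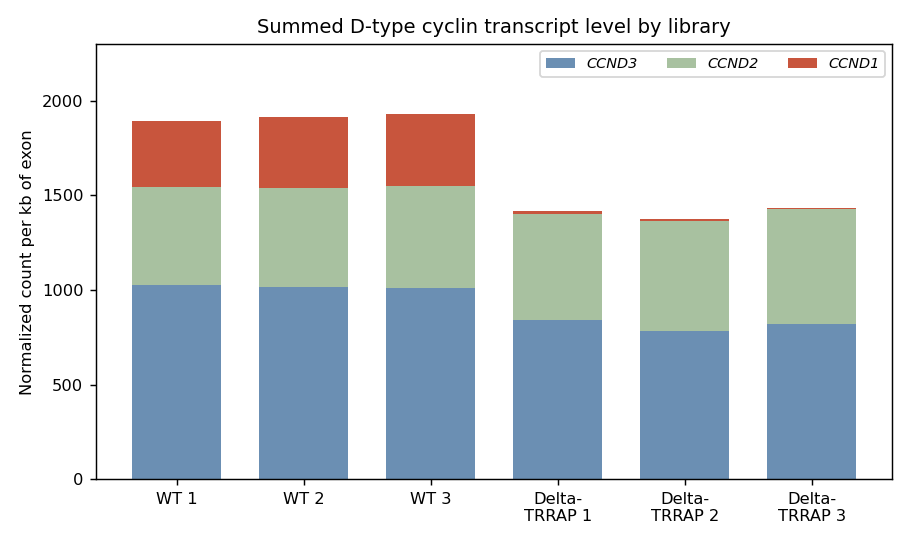
Stacked normalized counts per kb of exon for CCND3, CCND2 and CCND1 in each of the 6 libraries (one bar per library, axis from 0). The bars total between 1896 and 1933 in WT and between 1376 and 1435 in Delta-TRRAP, where the CCND1 segment is 0.557% to 1.12% of the bar.

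Both partner kinases fell. CDK6 (ENSG00000105810.9, chr7:92604921-92836573) had 12719, 13525 and 14256 normalized counts in WT and 5971, 6953 and 5696 in Delta-TRRAP. The groups were separated by a gap wider than either group's own spread. The difference on the log2 scale was -1.12 ± 0.07 (SE; adjusted p = 1.69e-09, edgeR). Its 95% interval of -1.27 to -0.97 spans the 2-fold limit, and under library-size scaling the value was -0.99, which is no longer a call.

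CDK4 (ENSG00000135446.17, chr12:57747727-57756013) had 6469, 6370 and 5912 normalized counts in WT and 3620, 3330 and 3571 in Delta-TRRAP. Again no library of one line reached the range of the other. The log2 fold change of -0.83 ± 0.05 (SE; adjusted p = 2.83e-09, edgeR) passed the test but was under 2-fold. Per kb of exon, CDK4 was the most abundant of the 10 transcripts in both lines, at 2020 ± 95.9 in WT and 1133 ± 50.1 in Delta-TRRAP (SD, n = 3). CDK6 was second in WT, at 1103 ± 62.8, and sixth in Delta-TRRAP, at 507 ± 54.0, where its libraries overlapped those of CCND2.

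The inhibitors did not move together. CDKN1A (ENSG00000124762.13, chr6:36676460-36687337), encoding p21, was the only one of the 10 genes to pass the test in the upward direction. Its normalized counts were 428, 432 and 477 in WT and 1054, 948 and 978 in Delta-TRRAP. The lowest Delta-TRRAP library was well above the highest WT library. The rise was 1.16 ± 0.07 (SE; adjusted p = 8.12e-10, edgeR) on the log2 scale, and 1.11 to 1.20 when each library was left out. Per kb it was the least abundant of the 10 in WT, at 149 ± 9.19, and seventh in Delta-TRRAP, at 332 ± 18.3, where its libraries overlapped those of RBL1.

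CDKN1B (ENSG00000111276.11, chr12:12685498-12722369), encoding p27, went the other way. It had 2430, 2377 and 2221 normalized counts in WT and 1556, 1614 and 1649 in Delta-TRRAP. The groups did not overlap, and the log2 fold change was -0.54 ± 0.05 (SE; adjusted p = 2.74e-07, edgeR).

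CDKN2C (ENSG00000123080.12, chr1:50960745-50974634), encoding the INK4 protein p18, had 2626, 2710 and 2598 normalized counts in WT and 2460, 2168 and 2314 in Delta-TRRAP. The highest Delta-TRRAP library lay just under the lowest WT library. The log2 fold change of -0.19 ± 0.06 (SE) passed narrowly (adjusted p = 0.00601, edgeR). It no longer passed without any single one of the 3 WT libraries or without Delta-TRRAP replicate 2 (adjusted p = 0.0104 to 0.031, edgeR), with the replicate number as a block (0.015), with a minimum mean count of 50 (0.0697), under upper-quartile scaling (0.173) or under library-size scaling (0.369).

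The 2 pocket proteins differed. RB1 (ENSG00000139687.15, chr13:48303744-48599436), the retinoblastoma protein gene, had 4096, 4025 and 4104 normalized counts in WT and 4023, 4343 and 4089 in Delta-TRRAP. The groups overlapped. The log2 fold change was 0.03 ± 0.05 (SE; adjusted p = 0.648, edgeR) with a 95% interval of -0.08 to 0.13, which bounds any difference to well under 2-fold in either direction. Under library-size scaling it was 0.16 and passed (adjusted p = 0.00841, edgeR). RBL1 (ENSG00000080839.12, chr20:36996349-37095997), encoding p107, had 2658, 2808 and 2811 normalized counts in WT and 1711, 1926 and 1670 in Delta-TRRAP. Its groups were far apart, with a log2 fold change of -0.64 ± 0.06 (SE; adjusted p = 1.46e-07, edgeR).

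Per kb of exon the order in WT was CDK4, CDK6, CCND3, CDKN2C, RB1, CCND2, RBL1, CCND1, CDKN1B and CDKN1A, and no neighbors in this order overlapped across libraries. In Delta-TRRAP it was CDK4, CCND3, CDKN2C, RB1, CCND2, CDK6, CDKN1A, RBL1, CDKN1B and CCND1. There CCND3 overlapped CDKN2C, CCND2 overlapped CDK6, and CDKN1A overlapped RBL1, so those pairs have no clear order. Length here is the union of all annotated exons of a gene, used or not in these cells. Overlap across libraries does not cover an error in that length, so both orders hold for these lengths only.

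**Figure D3:**
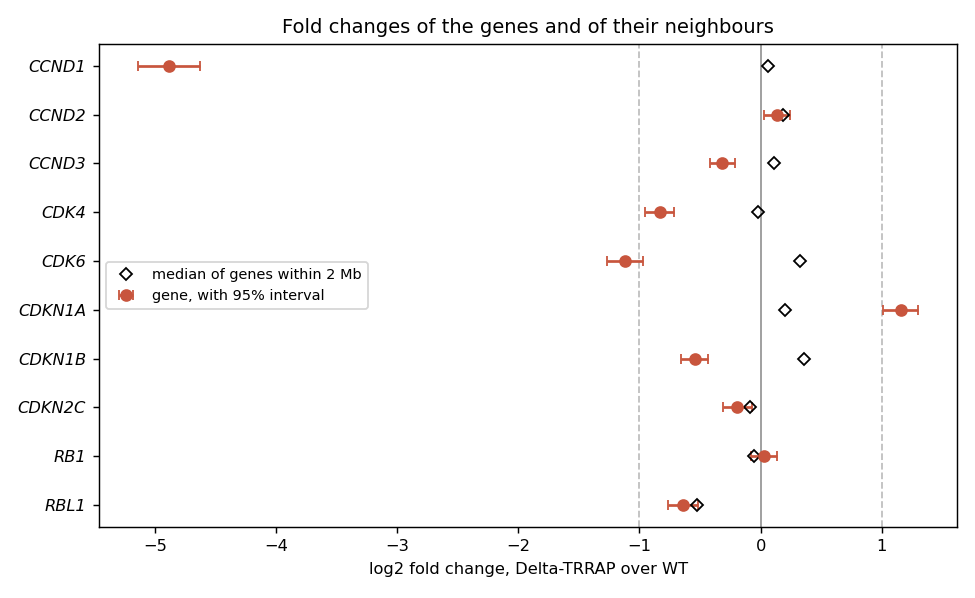
log2 fold change of Delta-TRRAP over WT for the 10 genes, as points with 95% intervals from the edgeR fit, and the median of the tested genes whose starts lie within 2 Mb of each, as open diamonds; dashed lines mark 2-fold. CCND1 lies at -4.89 with neighbors at 0.06, whereas RBL1 at -0.64 lies near its neighbors at -0.53.

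The genes that start within 2 Mb of each member were set beside it, as a description with no test. Across the 32 tested neighbors of CCND1 the median difference was 0.06 on the log2 scale, and none was lower than CCND1. Among them 10 passed as lower and 8 as higher, with 3 called lower and 1 called higher. The nearest by start, LTO1, was at -0.03. It starts 34 kb away on the opposite strand and shares exon bases with CCND1. MYEOV, 347 kb away on the other side and called lower, was at -2.28. These neighbors were chosen after their values were seen. The 35 neighbors of CDK6 had a median of 0.32, with 13 called higher and 2 called lower, and 1 of them lay below CDK6 itself. One of the called-lower genes, AC002454.1, also chosen after its values were seen, starts beside CDK6 and was at -1.12. GENCODE 44 names it CDK6-AS1, on the opposite strand, and its exons overlap those of CDK6. COL1A2, the marker given above, is among the called-higher genes and starts 1558 kb from CDK6. RBL1 stood in a different setting, because 44 of its 53 neighbors had a negative log2 fold change, 35 passed the test as lower, and the median was -0.53. Of those neighbors 23 were lower than RBL1, so its value lies within the range of its region. The medians around the other genes were -0.02 for CDK4, 0.20 for CDKN1A, 0.36 for CDKN1B, 0.18 for CCND2, 0.11 for CCND3, -0.08 for CDKN2C and -0.05 for RB1. These medians depend on the window and the scaling. With 5 Mb the median was 0.07 around CDKN1B, 0.01 around CDKN1A and 0.0077 around CDK4, and with 1 Mb it was 0.28 around CDKN2C and -0.0046 around CCND1, so the last 3 changed sign. Library-size scaling turned the medians around CDK4, CDKN2C and RB1 to 0.11, 0.05 and 0.08. Around CDK6 the median was 0.24 to 0.46 and around RBL1 -0.61 to -0.40 over all these settings.

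**Figure D4:**
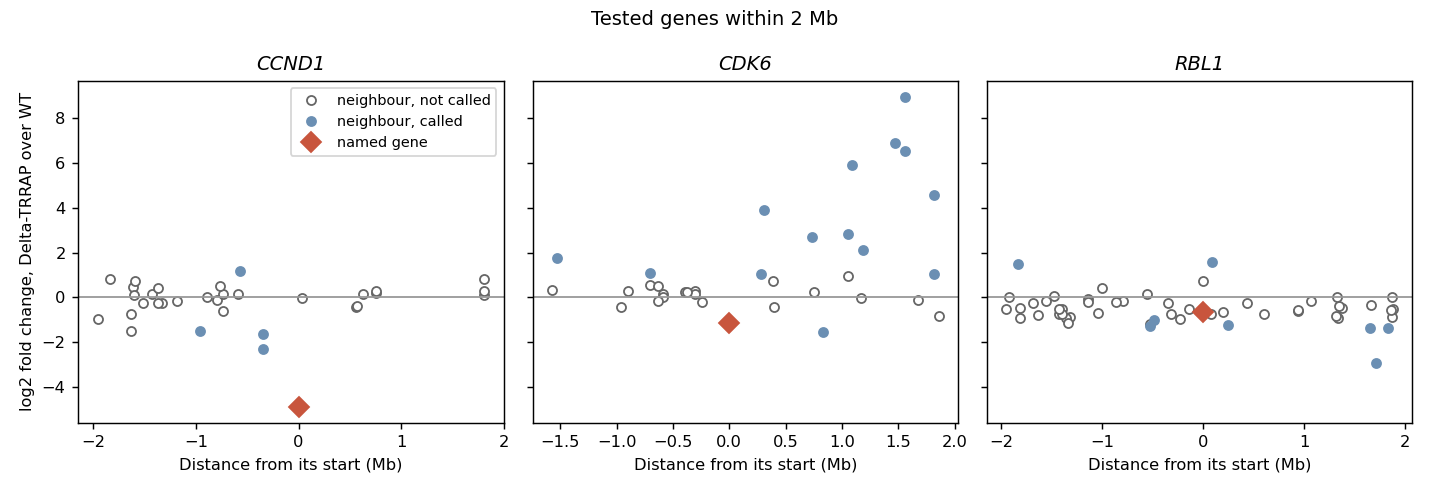
log2 fold change of each tested gene within 2 Mb of CCND1, CDK6 and RBL1 against the distance of its start in Mb; filled points are called, open points are not, and the diamond is the named gene. All 32 neighbors of CCND1 lie above it, 13 of 35 around CDK6 are called higher, and 44 of 53 around RBL1 lie below 0.

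The other genes of the pathway were grouped into 9 lists holding 70 genes, of which 66 were tested. Together 2 were called higher and 3 lower, and 46 passed the adjusted p, 10 higher and 36 lower, with a median log2 fold change of -0.24 against 0.03 for all tested genes. The 5 called of 66 lie below the 22.6% called among all tested genes, and the counts past the adjusted p stand against the 30.7% higher and 27.6% lower given above. These shares include genes of low count. With a minimum mean count of 50, calls among all genes fell to 1291 higher and 673 lower, while the lists kept 2 and 3. The share called among genes of like level was not computed. Under library-size scaling, and likewise under upper-quartile scaling, 14 passed as higher and 32 as lower. The medians of the lists were not recomputed under these scalings. Uncalled genes named from these lists are examples chosen after their values were seen. Among the other CDK inhibitors, CDKN1C, which encodes p57, fell with a log2 fold change of -3.67 ± 0.22 (SE; adjusted p = 9.56e-10, edgeR), from 466 to 36 raw counts over 3 libraries each. CDKN2D, encoding p19, was at -0.72 and passed the test without being called. CDKN2A and CDKN2B, the INK4 genes that K562 cells are known to lack, had 0 counts in all 6 libraries, where 3 counts, the limit that a count of 0 allows, would be 0.0855 CPM in the shallowest library.

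Of 6 genes that act after cyclin D, namely the cyclins E and A, CDK2 and the phosphatase CDC25A, 5 were tested and 4 passed as lower, CDC25A among them at -0.17, and CCNE1, encoding cyclin E1, was called, at -1.22 ± 0.05 (SE; adjusted p = 1.46e-11, edgeR). CDK2 was at -0.13 and did not pass. Of the 4 genes that turn over p27, SKP2, the F-box protein that marks p27 for degradation, was called lower at -1.40 ± 0.05 (SE; adjusted p = 2.71e-12, edgeR). CDKN1B itself also fell, as given above. Of the 8 genes of D-type cyclin turnover none was called, 1 passed as higher (AMBRA1, the ligase adaptor for D-type cyclins, at 0.59) and 3 as lower (FBXO4 at -0.92 among them). The CDK-activating kinase list had 2 of 3 genes past the test, both lower, with a median of -0.36. The list of the pocket protein RBL2 with the MuvB core, its partner complex, had 1 of 6 past the test as higher and 2 as lower, with a median of -0.11.

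The 10 E2F and DP genes encode the transcription factor family that pocket proteins restrain, although E2F6, E2F7 and E2F8 are known to act without binding them. Of the 10, 8 passed as lower, those 3 included, and 1 as higher, with a median of -0.38 and none called. Of 15 S-phase genes under E2F control 10 passed as lower and 2 as higher, with a median of -0.32 and none called, where all tested genes had 27.6% lower and 30.7% higher. MCM4, a subunit of the replicative helicase, was at -0.74. K562 cells are known to lack functional p53, and of 13 tested p53 response genes 4 passed as higher and 3 as lower, with a median of -0.03. The called genes were FAS, a death receptor, which went from 14 to 586 raw counts over 3 libraries each (5.36 ± 0.21, SE; adjusted p = 6.54e-12, edgeR), and GADD45A, a stress-induced growth arrest gene, at 1.17 ± 0.06 (SE; adjusted p = 1.09e-10, edgeR). The 3 that passed as lower, BAX at -0.62, BBC3 at -0.67 and AEN at -0.33, were not called. CDKN1A, also known as a p53 target, was at 1.16 as given above.

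**Figure D5:**
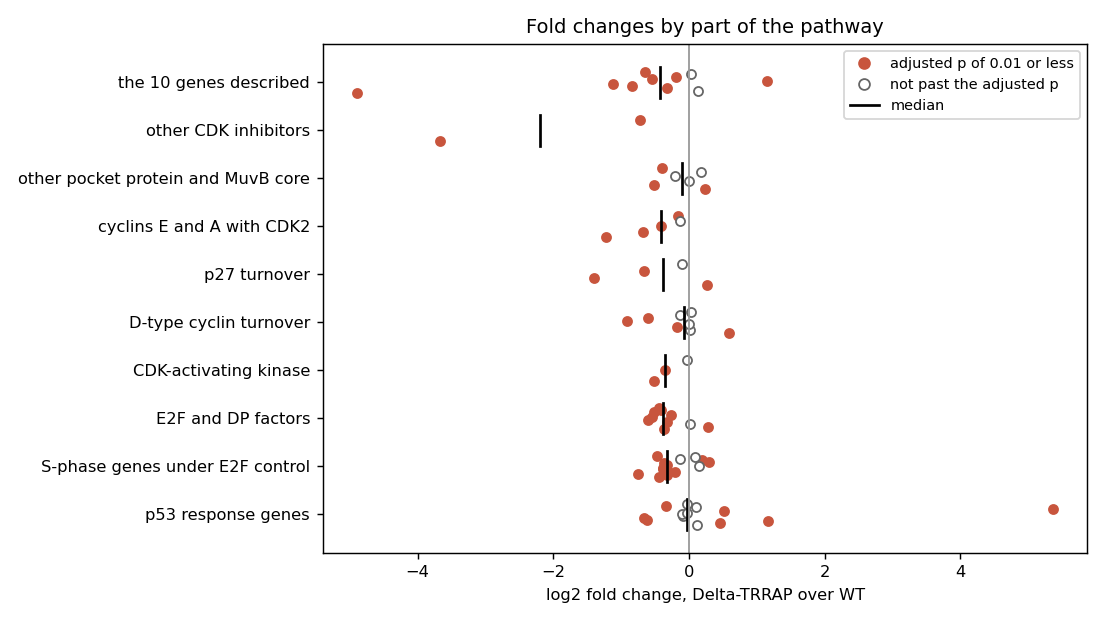
log2 fold change of Delta-TRRAP over WT for the 10 genes and each tested gene of the 9 pathway lists; filled points passed an adjusted p of 0.01, open points did not, and the black bar is the median of the row. Medians lie at -0.38 for E2F and DP factors, -0.32 for S-phase genes and -0.03 for p53 response genes.

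Likeness was sought only among genes that changed in the same direction and had a mean normalized count of at least 100. Genes with the pattern most like that of CCND1 over the 6 libraries were LINC00879, RAB27B, DDN, IGFBP4 and PURPL, of 6516 compared. Their root mean square difference from CCND1, on log2 normalized counts centered on the WT mean, was 0.238 to 0.377. For CDKN1A they were BBOF1, CSRNP1, FAM149B1, CYP4V2 and TMEM63B, of 4941 compared, at 0.0452 to 0.0597. Likeness here is a description of levels over 6 libraries from 2 clones, with the direction fixed beforehand. DDN and PURPL averaged only 8.64 and 8.04 normalized counts in Delta-TRRAP.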

How the data were processed

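Poly(A) RNA was measured in 6 libraries. The authors deposited raw counts per gene, made by aligning reads to hg38 with STAR, keeping reads that map once, and counting on GENCODE genes with HTSeq 2.0.2 in reverse-stranded union mode. The authors' normalized table, with 3 columns of another condition, and their comparison table of fold changes and p-values were not used. Groups came from the sample titles.

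Counts were tested in R 4.3.3 with edgeR 4.0.16 (quasi-likelihood, group as the only term) on genes whose normalized counts averaged 5 or more, with thresholds after the study's methods, and the fit was tested on simulated data. Counts for this filter were scaled with TMM factors over all genes, so a gene near the limit can differ from its normalized count given here. TMM scaling factors for the tests and the normalized counts were then recomputed on the genes past this filter. This was not chosen in advance. A first fit with factors over all genes gave a total of called genes that differed from the 4322 of an earlier account of these data, 4 further variants of scaling and fit were tried, and the scaling that gives 4322 was kept. The share called among all genes, 22.6%, is therefore matched to that account and is no independent repeat of it. The first fit is kept as an alternative. Members, gene lists and thresholds were chosen with earlier results of these data known, and the motifs after the promoter windows were seen. Genes were named by rule: all members, the called genes of each list (at most 4), and the 5 genes most like CCND1 and CDKN1A. Neighboring genes, uncalled genes of the lists and uncalled markers named in the text fall outside this rule and were chosen after their values were seen. Exon lengths and positions are from GENCODE 44, whereas the study counted on an earlier GENCODE version. Replicate libraries differed beyond counting noise (chi-square per degree of freedom 5.43 to 17.5). Alternatives were DESeq2 1.42.0, limma-voom (limma 3.58.1), other scalings and filters, a replicate block and leaving out each library. Intervals and floors cover the error stated only.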

Additional observations from a re-analysis of the deposited data

How the results depend on the processing

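Of 150 alternative values for the members' log2 fold changes, 137 kept their direction and their side of the threshold, 8 fell below it (all CDKN2C), 4 rose past it (CCND2 and RB1) and 1 changed sign, RB1 at -0.0012 without Delta-TRRAP replicate 2, the lowest of its 6 leave-one-out values, which reached 0.0445. CCND1, CCND3, CDK4, CDK6, CDKN1A, CDKN1B and RBL1 passed the adjusted p in every fit. With TMM factors over all genes, the scaling first fitted, 3095 genes were called higher and 1212 lower in place of 3160 and 1162, the same numbers of members were called, CCND2 was at 0.11 (adjusted p = 0.0568, edgeR) and CDKN2C at -0.22 (adjusted p = 0.00323, edgeR). Members called lower numbered 1 under library-size scaling and 4 at a fold change of 1.5. Members past the adjusted p as higher numbered 2 under upper-quartile scaling, 3 under library-size scaling and 2 with a minimum mean count of 50. That minimum left fewer genes to test and recomputed the TMM factors on them, with 1291 genes called higher and 673 lower. The looser fold change of 1.5 gave 2562 lower. What else entered these shifts was not tested. The share of CCND1 in the WT cyclin sum was 14.9% without division by exon length and 18.6% with the shared exon bases of CCND2 left out, an alternative chosen after seeing the data. Medians of neighboring genes moved by more than their spread over libraries in 25 of 30 alternatives, and the cause was not tested.

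Same-numbered replicates did not deviate together (correlations -0.00747, -0.0235 and -0.0159), so the numbers were not taken to pair the samples. With the replicate block, members past the adjusted p numbered 1 higher and 6 lower, and CDKN2C was at -0.19 (adjusted p = 0.015, edgeR). With 1 clone a line and 3 libraries each, clone effects cannot be told apart from genotype, and the 36 to 77 raw counts of CCND1 in Delta-TRRAP limit the precision of its fold change.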
